A study of Mus musculus with 2 samples.

Results

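Astrocytes of the brain parenchyma that carry the water channel gene Aqp4 were examined in single-cell RNA profiles of the newborn mouse pallium, the dorsal forebrain that includes the cerebral cortex. Barcodes were chosen by the counts of marker genes: a barcode was taken as an Aqp4 astrocyte when it had at least 2 unique molecular identifiers (UMIs, counted transcripts) of Aqp4 and at least 2 of Slc1a3, the glutamate transporter GLAST. It also had to have 0 UMIs of the cycling genes Mki67 and Top2a, of the oligodendrocyte precursor gene Pdgfra and of the neuronal genes Neurod2 and Neurod6. Barcodes were further required to have at most 1 detected gene of the set Gfap, Serpinf1, Pla2g3 and Nog, and at most 1 of the set Naaa, Ecrg4, Veph1 and Tfap2c. Only barcodes with at least 500 detected genes and at most 10% of UMIs in mitochondrial genes were considered. The rule kept 1013 barcodes, 530 in replicate 1 and 483 in replicate 2, of 22193 barcodes within these limits and 28371 in all.

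All cells came from wild-type mice and belonged to a single group of 2 libraries, with no treatment and no control. Dividing cells had been dated at embryonic day 12 (E12) with EdU, a thymidine analogue that enters newly made DNA, and the pallium was taken at postnatal day 3 (P3) and pooled. Live cells with the strongest EdU label, the brightest 10%, were sorted and captured with a droplet method that counts the 3′ ends of transcripts. The sort decides which cells could be seen, so every share is a share of sorted cells. The labels leave unsaid whether each library had its own litter or animals. The spread between the libraries, against which p-values are set, may therefore be technical. The Aqp4 astrocytes were set against all other barcodes within the quality limits (10698 and 10482) and against 3 astroglial classes gated from the same libraries. The Gfap-rich astroglia (391 and 358 barcodes) met the same limits on Slc1a3, cycling, Pdgfra and neuronal genes but carried at least 2 of Gfap, Serpinf1, Pla2g3 and Nog, with at most 1 of the Naaa set. The Naaa-rich astroglia (143 and 126) carried at least 2 of Naaa, Ecrg4, Veph1 and Tfap2c, with at most 1 of the Gfap set. The immature astroglia (179 and 197) carried at most 1 UMI of Aqp4 and at least 2 of Egfr, Mest and Fbln2, with at most 1 gene of each other set. Gates for oligodendrocyte precursor cells (OPCs; Pdgfra at least 2 UMIs), neurons (Neurod2 and Neurod6 together at least 2) and microglia (C1qa, C1qb and C1qc together at least 10), all with 0 UMIs of Aqp4, served to show the level of free RNA and of other cell types. The OPC and neuron gates also had 0 UMIs of Mki67 and Top2a. The OPC gate had 0 of Neurod2 and Neurod6, and the neuron gate 0 of Pdgfra. With these limits the neuron gate can understate free RNA of astrocytes and OPCs.

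Astrocytes clear glutamate and potassium from the space around synapses, couple to each other through gap junctions, and wrap blood vessels with endfeet in which the water channel aquaporin-4 is held by the dystrophin complex. They also supply neurons with lipids, glutamine and lactate, and secrete proteins that act on synapses and matrix. In the rodent cortex they arise from radial glia after neurogenesis, divide locally in the first postnatal weeks, and acquire their mature transporter and channel genes gradually, so cells at P3 are young astrocytes.

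The Aqp4 astrocytes were 4.72% of the barcodes within the limits in replicate 1 (exact Clopper-Pearson 95% interval 4.34 to 5.13) and 4.40% in replicate 2 (4.03 to 4.81), a mean of 4.56% ± 0.223 (SD, n = 2). The Gfap-rich, Naaa-rich and immature astroglia averaged 3.37%, 1.21% and 1.70%. The intervals cover counting error only. The median Aqp4 astrocyte held 7698.5 and 8989 UMIs, against 7533 and 8508.5 in all other barcodes, and the sums behind the comparisons held 3980804 and 4146665 UMIs, against 88288066 and 98190909. A doublet caller marked 2.26% and 2.69% of the Aqp4 astrocytes, against 7.95% and 7.30% of all other barcodes. The libraries shared 62 barcode sequences, and no barcode was an Aqp4 astrocyte in both.

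The values used by the rule are a description and carry no test. The median Aqp4 count was 4 UMIs per barcode in both libraries, the highest was 34 in replicate 1 and 37 in replicate 2, and 138 and 115 barcodes sat at the minimum of 2. Slc1a3 had medians of 22 and 27 UMIs. A single marker of the Gfap set was present in 282 and 245 of the Aqp4 astrocytes: Gfap, the intermediate filament of fibrous and reactive astrocytes, was detected in 22.1% and 21.1% of them. A single marker of the Naaa set was present in 130 in each library, most often Naaa itself, with 63 and 65 barcodes. The label of Aqp4 astrocytes therefore covers Gfap-positive cells as well, as long as no other gene of the Gfap set was seen.

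Barcodes just inside and just outside the Aqp4 threshold were closer to each other in other astrocyte genes than to barcodes with no Aqp4. Among barcodes that met the rest of the rule, the 30 astrocyte identity genes (a list without the rule's genes) summed to 29788 and 25696 CPM (UMIs of the gene per 1000000 UMIs of the class) at 2 UMIs of Aqp4, to 25824 and 21927 CPM at 1 UMI, and to 13053 and 11527 CPM at 0. At 5 or more UMIs of Aqp4 the sum was 37703 and 34095 CPM. The sum is dominated by Apoe and Cst3, at 12319 and 9781 CPM in the Aqp4 astrocytes of replicate 1, and the microglia gate, which is rich in Apoe, summed to 25731 and 22776 CPM on the same list. The step between 0 and 1 UMI was larger than the step between 1 and 2 in both libraries. Slc1a2, the main glutamate transporter of mature astrocytes, stood at 985 and 1064 CPM at 2 UMIs and at 854 and 882 CPM at 1 UMI. Depth also changed, though not steadily, along the same axis. Barcodes with 0 Aqp4 UMIs had medians of 3489 and 5267 UMIs, above the 3155 and 3697 UMIs of those with 1. Those with 5 or more had 8552 and 10177. The part of depth in these levels was not tested.

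**Figure D1:**
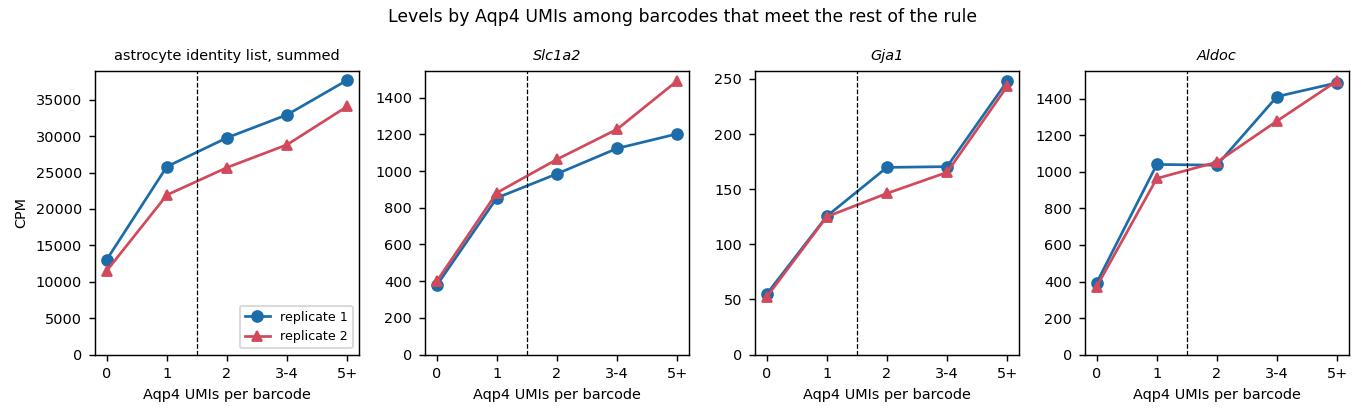
Level in CPM (vertical axes, from 0) of the summed astrocyte identity list, Slc1a2, Gja1 and Aldoc against the number of Aqp4 UMIs per barcode (horizontal axes), for barcodes that met the rest of the rule, with replicate 1 as circles and replicate 2 as triangles. The dashed line marks the threshold of 2 UMIs. The list sum at 1 UMI was 25824 and 21927 CPM, close to the 29788 and 25696 CPM at 2 UMIs and well above the 13053 and 11527 CPM at 0.

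The label was set beside 30 astrocyte identity genes that the rule does not use. The list was chosen with earlier results of these data known, so it is no independent check. After each barcode was thinned to 2000 UMIs, which left 482 and 446 of the Aqp4 astrocytes, the median Aqp4 astrocyte had UMIs of 14 of the 30 genes in both libraries. The median was 13 in Gfap-rich, 12 in Naaa-rich and 9 in immature astroglia, 6 in the OPC gate and 2 in the neuron gate. Every thinned Aqp4 astrocyte had at least 3 of the 30. Gja1, the gap junction protein connexin 43, was detected in 34.2% and 32.7% of thinned Aqp4 astrocytes (67.4% and 68.1% without thinning), against 0.875% and 0.543% in the neuron gate (2.20% and 3.49% without thinning). Slc4a4, the sodium bicarbonate cotransporter, was detected in 78.4% and 83.0% after thinning (93.6% and 95% without), against 6.56% and 8.28% in the neuron gate (15.9% and 18.8% without). The share in the neuron gate, whose median depth was 6063 and 6873 UMIs, gives a reading of free RNA or other background. That reading can be too low, since barcodes with any UMI of Aqp4 were left out of the gate.

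Markers of glutamatergic and GABAergic neurons, mitosis, microglia and vessels were rare in the same thinned barcodes, and those of OPCs and immature neurons less so. The rule had already left out barcodes with UMIs of Mki67, Top2a, Pdgfra, Neurod2 or Neurod6. Low shares of mitosis, glutamatergic neuron and OPC markers therefore follow in part from the rule and are no independent check of it. At least 3 of 12 glutamatergic neuron markers, and at least 3 of 16 mitosis genes, were found in 0 of the 482 and 446 thinned Aqp4 astrocytes, which allows shares of up to 0.762% and 0.824% (exact Clopper-Pearson bounds). At least 3 GABAergic markers were found in 0.622% and 0.897%, microglial ones in 0.622% and 0.448%, and endothelial, mural or fibroblast ones in 0.207% and 0%. At least 3 of 12 OPC markers were found in 9.13% and 7.17%, against 5.19% and 5.04% of Gfap-rich astroglia, 2.92% and 2.31% of the neuron gate and 96.9% and 96.3% of the OPC gate. At least 3 of 12 immature neuron markers were found in 20.3% and 19.1%, close to the 18.3% and 18.4% of Gfap-rich astroglia.

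Levels of UMIs summed per library were compared with edgeR's quasi-likelihood test with the library as a block, and p-values were Benjamini-Hochberg adjusted over all genes tested. A gene is called higher or lower where its adjusted p was under 0.05 and its fold change was at least 2-fold. Fold changes are log2 values of Aqp4 astrocytes over the other class, estimated after TMM scaling, which corrects for differences in composition between sums. The CPM values are not scaled in this way. A ratio of printed CPM can therefore differ from the fold change and fall on the other side of the 2-fold limit. The 18 genes used in the gates are left out of every count. Each class has 2 values per gene, so a statement that values did not overlap is a description and adds little to a call. The share of all genes without overlap is not given. The gates were read from the same barcodes, so a call describes how the gated classes differ and is no independent test of what the cells are.

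Against all other barcodes, Aqp4 astrocytes had higher levels of genes for glutamate uptake, potassium and bicarbonate transport, gap junctions, lipid supply and matrix. Genes of cycling cells, OPCs and neurons had lower levels. That lower direction follows in part from the rule. Barcodes with UMIs of Mki67, Top2a, Pdgfra, Neurod2 or Neurod6 were left out of the Aqp4 astrocytes but kept among all other barcodes. Of 16831 genes tested, 1306 (7.76%) were called higher and 2268 (13.5%) lower, and the median log2 fold change over all genes was -0.07. Of the 30 astrocyte identity genes 25 were called higher and 0 lower, with a list median of 1.90. With no fold limit 28 of them were higher and 1, S100b, was lower, beside 4028 higher and 4519 lower of all genes. All list counts with the fold limit are read beside the shares of 7.76% and 13.5%. The other barcodes are a mixture in which the OPC gate alone held 19.2% of all barcodes within the limits, so each difference depends on that mixture.

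**Figure D2:**
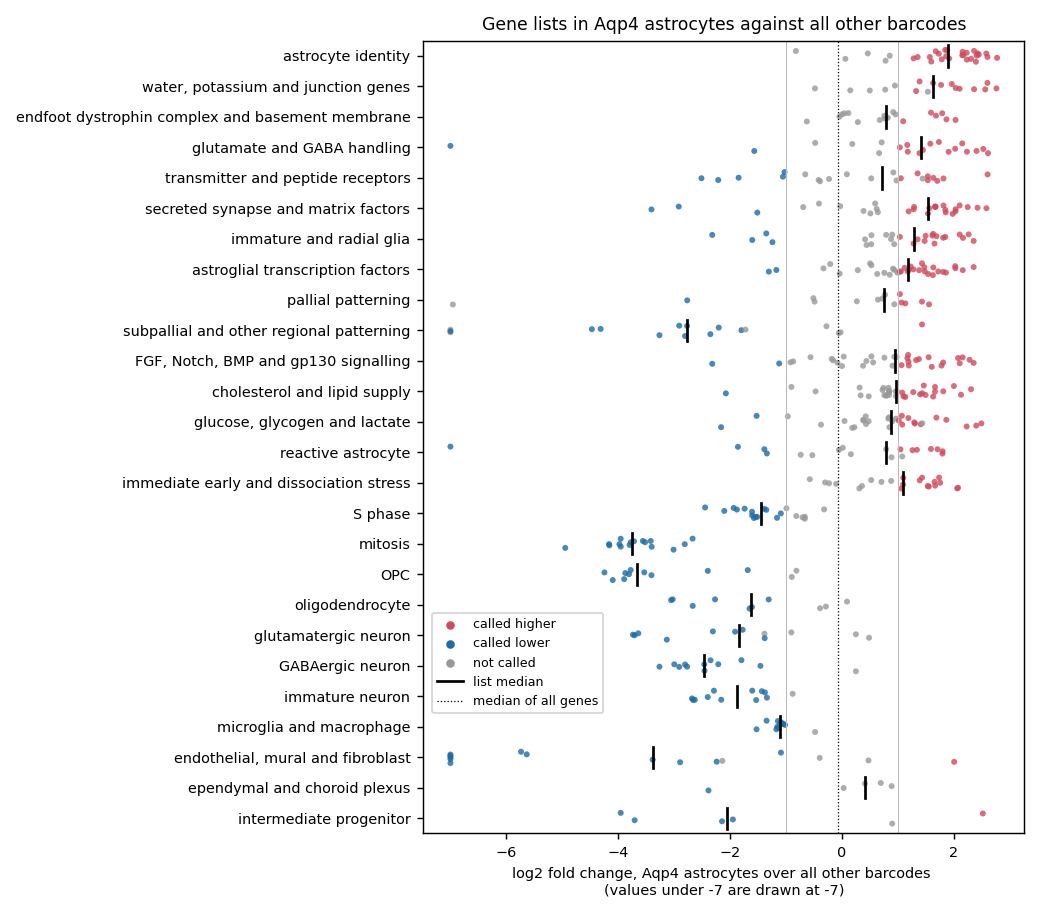
Log2 fold change of Aqp4 astrocytes over all other barcodes (horizontal axis, values under -7 drawn at -7) for the genes of 26 lists (rows). Each point is a gene, red where called higher, blue where called lower and grey where not called, the black bar is the list median and the dotted line the median of all genes, -0.07. The astrocyte identity list has its median at 1.90 and no blue point, and the mitosis list has its median at -3.75 with all 16 genes blue.

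Of the genes that move water, potassium and other ions or form junctions, 11 of 17 were called higher and 0 lower (list median 1.63). Gja1 (chr10:56377330-56402513, plus strand, mm10) had 206 and 202 CPM in Aqp4 astrocytes and 34.8 and 41.0 CPM in all other barcodes. The classes did not overlap, and the log2 fold change was 2.60 (SE 0.06, adjusted p = 1.65e-18). Slc4a4 (chr5:88886818-89239653, plus strand) had 892 and 1050 CPM, against 171 and 199 CPM, a log2 fold change of 2.56. Kcnj10, the potassium channel Kir4.1, had 111 and 147 CPM, against 39.1 and 46.1 CPM, and Kcnj16, its partner subunit Kir5.1, had 26.6 and 20.5 CPM, against 10.1 and 10.1 CPM. Both were higher in each library, by 1.77 and 1.39 on the log2 scale. Atp1b2, a subunit of the astrocytic sodium pump, differed by 1.97. Mlc1 and Hepacam, which form a membrane complex at astrocyte contacts, differed by 2.36 and 1.63. Gjb6, connexin 30, a gene of mature astrocytes, was called higher but stood at only 3.27 and 2.41 CPM, against 0.385 and 0.550 CPM. Trpm3, Clcn2 and Gjb2 were not called.

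The scaffold that holds aquaporin-4 at the endfoot was less uniform, with 6 of 19 genes called higher and 0 lower (list median 0.79). The dystrobrevin gene Dtna had 198 and 215 CPM, against 67.4 and 77.8 CPM. It differed more than 2-fold with no overlap, by 1.68 on the log2 scale. Itga6, a laminin-binding integrin subunit, differed by 2.03, and the laminin gene Lamb2 by 1.79. Dag1, which encodes dystroglycan, stood at 183 and 174 CPM, against 102 and 111 CPM, and with a log2 fold change of 0.92 it missed the 2-fold limit.

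Glutamate and GABA handling had 14 of 20 genes called higher and 2 lower (list median 1.42). Slc1a2 (chr2:102658659-102790784, plus strand) had 1132 and 1333 CPM in Aqp4 astrocytes and 267 and 324 CPM in all other barcodes. The lowest Aqp4 astrocyte value was above the highest other value, and the log2 fold change was 2.24 (SE 0.04, adjusted p = 1.15e-20). Glul, glutamine synthetase, had 875 and 860 CPM, against 219 and 221 CPM. Slc6a11, the GABA transporter GAT-3 of astrocytes, had 442 and 442 CPM, against 84.7 and 88.1 CPM, a log2 fold change of 2.53. Slc7a10, a transporter of serine and other small neutral amino acids, had 177 and 169 CPM, against 31.7 and 32.1 CPM, a log2 fold change of 2.61. The cystine and glutamate exchanger Slc7a11 and the glycine transporter Slc6a9 were called higher as well, by 2.41 and 2.03. The 2 genes called lower were Slc38a1, a glutamine carrier found mainly in neurons, with 35.9 and 40.0 CPM against 119 and 135 CPM, and Slc38a5, which had 0 UMIs in the Aqp4 astrocytes. Reads of Slc1a2, Glul and Slc7a10 can fall in exons of overlapping genes on the other strand, and with no statement on how the counting treated strand such reads cannot be told apart.

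Receptors were mixed, with 8 of 22 called higher and 5 lower (list median 0.72). Grm3 (chr5:9485541-9725170, minus strand), a metabotropic glutamate receptor that lowers cyclic AMP, had 223 and 237 CPM, against 41.3 and 44.0 CPM. Grm5 (chr7:87584168-88134907, plus strand), the metabotropic receptor that raises calcium in young astrocytes, had 260 and 297 CPM, against 83.8 and 94.5 CPM. Neither gene's values overlapped between the classes, with log2 fold changes of 2.61 and 1.82. Adcyap1r1, the PACAP receptor, differed by 1.71 and the adrenergic receptor Adra1b by 1.64, with Adra1b at only 8.29 and 8.20 CPM, against 2.88 and 3.11 CPM. Among the genes called lower were the AMPA receptor subunits Gria1 (-2.21) and Gria4 (-2.51), the microglial receptor P2ry12 (-1.05) and the adenosine receptor Adora1 (-1.03). At least 3 of the list's genes were detected in 69.5% and 66.4% of thinned Aqp4 astrocytes.

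Secreted proteins of synapses and matrix had 18 of 29 genes called higher and 3 lower (list median 1.54). Sparcl1 (hevin, which promotes synapse formation) had 2449 and 2436 CPM, against 575 and 583 CPM. Pla2g7, a secreted phospholipase, had 617 and 607 CPM, against 118 and 112 CPM, and Igfbp2, a binding protein of insulin-like growth factors, had 1266 and 1217 CPM, against 328 and 323 CPM. Each was higher in both libraries, by 2.25, 2.59 and 2.11. Chrdl1, which matures synapses, and Gpc4, a glypican that recruits AMPA receptors, were called higher by 1.54 and 1.56 at levels of 53.8 and 57.9 CPM and 19.6 and 26.5 CPM. The phagocytic receptors Megf10 and Mertk differed by 2.03 and 1.98. The thrombospondins did not move as a family: Thbs3 was called higher (1.68), Thbs4 was called lower from 1 UMI in the Aqp4 astrocytes, and Thbs1 and Thbs2 stood under 5 CPM in every class sum of this comparison and were not called. Gas6, a ligand of Mertk, was called lower (-1.51), and so was Tnr, a matrix gene of OPCs (-3.41).

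Lipid and energy genes were called higher in part. Cholesterol and lipid supply had 15 of 34 genes called higher and 1 lower (list median 0.97). Apoe, the main apolipoprotein of brain, had 12319 and 10014 CPM in Aqp4 astrocytes and 2713 and 2354 CPM in all other barcodes, a log2 fold change of 2.31 with no overlap. The microglia gate, at 21649 and 18799 CPM, held more Apoe than the Aqp4 astrocytes in both libraries. Enzymes of cholesterol synthesis differed less: Msmo1 (1.28), Cyp51 (1.10) and Hmgcs1 (1.08) were called higher, while Idi1, Fdps, Fdft1, Sqle, Lss and Dhcr7 had log2 fold changes between 0.76 and 0.97 and missed the 2-fold limit. Abcg1, a sterol exporter, was the gene called lower (-2.07). Glucose, glycogen and lactate genes had 12 of 30 called higher and 2 lower (list median 0.88), among them Aldoc (1372 and 1350 CPM, against 329 and 325 CPM) and the glycogen targeting subunit Ppp1r3c (47.2 and 58.4 CPM, against 9.81 and 11.3 CPM).

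Of 27 genes of radial glia and young astroglia tested, 15 were called higher and 4 lower (list median 1.28). Fabp7, the brain fatty acid binding protein of radial glia, had 21405 and 21977 CPM, against 7975 and 7809 CPM, and Hes5, a Notch target, had 916 and 809 CPM, against 203 and 177 CPM. The log2 fold changes were 1.63 and 2.36, with no overlap. Among the genes called lower were Sox4, Sox11 and Dll1, which mark committed neuronal and glial precursors, with log2 fold changes of -1.35, -1.60 and -2.32. S100b and Agt belong to the astrocyte identity list. S100b, a calcium-binding protein of mature astrocytes, had 11.6 and 13.7 CPM, against 24.5 and 26 CPM, a log2 fold change of -0.82 (adjusted p = 1.95e-05). Agt, angiotensinogen, was called higher at 3.77 and 5.55 CPM, against 1.30 and 1.58 CPM.

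Of 35 astroglial transcription factors 21 were called higher and 2 lower (list median 1.18). The BMP targets Id1 and Id3 differed by 2.03 each, Hey2 by 1.86, Klf15 by 2.16 and Rorb by 1.64. Nfia, Nfib, Nfix, Zbtb20 and Sox9, which drive the switch to gliogenesis, were not called, with log2 fold changes of 0.50, -0.21, -0.33, -0.04 and 0.86, and neurons and OPCs also transcribe several of them. Sox6 and Zfhx4 were called lower, by -1.17 and -1.31. Of 14 pallial patterning genes 5 were called higher (Emx2, Pax6, Gli3, Otx1 and Lef1) and Dmrta1 was called lower. Of 17 subpallial and other regional genes tested 10 were called lower, among them Dlx1 with 12.3 and 13.0 CPM against 94.1 and 105 CPM, and Zic5 was called higher.

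Signalling genes of the FGF, Notch, BMP and gp130 pathways had 16 of 34 called higher and 2 lower (list median 0.96). The receptors were the leading members: Fgfr3 had 157 and 144 CPM, against 37.0 and 39.1 CPM, Notch3 had 62.8 and 66.3 CPM, against 14.4 and 15.5 CPM, and Bmpr1b had 70.3 and 90.4 CPM, against 20.7 and 21.5 CPM. All 3 were higher in both libraries. The genes called lower were the Notch ligands Dll1 (-2.32) and Jag1 (-1.12). Feedback inhibitors of FGF signalling were not called: Spry1 and Spry4 had log2 fold changes of -0.87 and -0.92 and Spry2 had 0.94. Immediate early genes, which dissociation can induce, had 13 of 22 called higher and 0 lower (list median 1.10), with Fos at 2947 and 2832 CPM against 1047 and 1004 CPM. Their part in the other differences was not tested.

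Among all called genes outside the gates, unnamed gene models aside, those with the highest fold changes and at least 20 CPM in the higher class were Myorg, Angptl4, Ppp1r3g, Gsg1l, Slc7a10, Grm3, Gja1, Pla2g7, Htra1 and Fgf1. Their log2 fold changes ran between 2.58 and 2.74. Myorg (chr4:41495604-41503076, minus strand), a glycosidase gene mutated in a human brain calcification disease, had 48.2 and 52.8 CPM, against 8.0 and 9.02 CPM. Angptl4, an inhibitor of lipoprotein lipase, had 54.0 and 55.9 CPM, against 9.71 and 9.82 CPM. Ppp1r3g directs a phosphatase to glycogen and Gsg1l encodes an auxiliary subunit of AMPA receptors. At the other end, the beta-globin gene Hbb-bs had 0 UMIs in the Aqp4 astrocytes and 39.4 and 14.9 CPM in all other barcodes, at least 73.5-fold lower when set against 3 counts over both libraries. The neutrophil genes S100a8 and S100a9 had 5 and 3 UMIs in the Aqp4 astrocytes, and their levels in all other barcodes differed widely between libraries (7.96 and 81.1 CPM, and 1.65 and 71.6 CPM). The call of Hbb-bs was lost with DESeq2 and that of S100a9 without the library block. The remaining genes of this group were Slitrk1, Csmd3 and Myt1, which neurons or OPCs transcribe, and Hmmr, Kif15, Knl1 and Hist1h3c of the cell cycle, with log2 fold changes between -5.03 and -4.40. All 16 mitosis genes and 14 of 20 S phase genes were called lower, and barcodes with Mki67 or Top2a had been left out of the Aqp4 astrocytes by the rule.

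**Figure D3:**
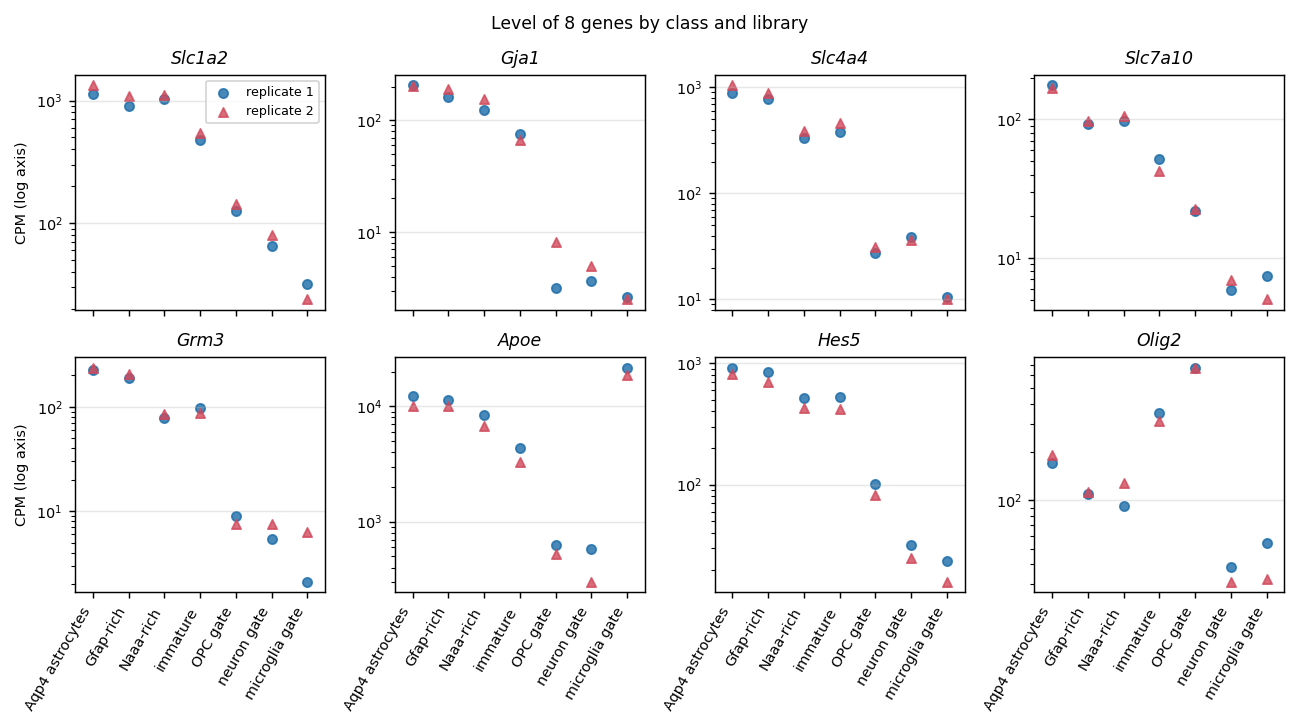
Level in CPM (vertical log axes) of Slc1a2, Gja1, Slc4a4, Slc7a10, Grm3, Apoe, Hes5 and Olig2 in 7 classes of barcodes, Aqp4 astrocytes first, with replicate 1 as circles and replicate 2 as triangles. Slc7a10 stands at 177 and 169 CPM in Aqp4 astrocytes and at 92.3 and 97.2 CPM in Gfap-rich astroglia. Apoe is highest in the microglia gate and Olig2 in the OPC gate.

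The Aqp4 astrocytes differed from the Gfap-rich astroglia at few genes. Those lower in Aqp4 astrocytes included MHC class II genes, the lipid droplet gene Cidea and the BMP pathway genes Smad6 and Smad9. All 3 astroglial classes were compared in 1 model, and the 3 comparisons share the Aqp4 astrocyte sums. Of 11650 genes tested 27 (0.232%) were called higher and 112 (0.961%) lower in Aqp4 astrocytes. None of the 30 identity genes and none of the lists for ion transport, glutamate handling, receptors or lipids had a gene called in either direction by edgeR, while 1779 of all genes had an unadjusted p under 0.05. With no fold limit 8 identity genes were higher and 4 lower. Over all genes 253 genes were higher and 424 lower without that limit, and DESeq2 with the fold limit called 2 higher and 36 lower.

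Of the genes higher in Aqp4 astrocytes, those with at least 20 CPM were Inka2, Hlf, C1qa, C1qb, C1qc and Fcer1g. Inka2 (chr3:105704599-105720842, plus strand), an inhibitor of the kinase Pak4, had 86.7 and 89.7 CPM, against 38.6 and 48.6 CPM, with no overlap and a log2 fold change of 1.02 (SE 0.11, adjusted p = 2.4e-09). Hlf, a transcription factor with circadian partners, had 26.4 and 29.2 CPM, against 12.5 and 14.8 CPM, a log2 fold change of 1.03. Both calls were lost when the Gfap-rich class was also held to 2 UMIs of Aqp4 (0.92 and 0.98 on the log2 scale), that of Hlf also with DESeq2 and that of Inka2 also after thinning to 2000 UMIs (0.82). The C1q genes and Fcer1g belong to microglia. C1qa had 42.2 and 44.9 CPM in Aqp4 astrocytes, against 0.958 and 32.5 CPM in Gfap-rich astroglia. Of all C1q UMIs in the Aqp4 astrocytes, 455 of 470 and 454 of 467 lay in 3 and 2 barcodes, and 513 and 468 barcodes had none. When barcodes with at least 10 C1q UMIs were left out of every class, an alternative chosen after seeing the data, 1 gene of the microglia list could still be tested and 0 were called, in place of 6. With doublet-marked barcodes left out the fold change of C1qa over Gfap-rich astroglia was -3.31.

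Some receptor, transporter and secreted genes were higher by less than 2-fold. Slc7a10 had 177 and 169 CPM, against 92.3 and 97.2 CPM (0.87 on the log2 scale), Grm5 had 260 and 297 CPM, against 161 and 179 CPM (0.72), and Slc6a11 had 442 and 442 CPM, against 285 and 324 CPM (0.54). Mfge8, an opsonin made by astrocytes, differed by 0.65, Ptprz1 by 0.62, Igfbp2 by 0.70 and the chemokine gene Cxcl14 by 0.76. All of these genes had adjusted p under 0.05. Their values did not overlap between the classes, which with 2 values per class is a description only. With no fold limit 5 of 16 receptor genes were higher and 0 lower, and 6 of 15 ion and junction genes were higher and 0 lower. Of glutamate and GABA genes 5 of 19 were higher and 2 lower, and of secreted genes 2 of 26 were higher and 9 lower. Over all genes that setting gave more lower than higher genes, 424 and 253 of 11650.

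The 112 genes called lower against Gfap-rich astroglia included genes of MHC class II. H2-Ab1, an MHC class II chain, had 2.51 and 3.38 CPM, against 63.9 and 59.3 CPM, a log2 fold change of -4.35. H2-Eb1, H2-Aa and Cd74 had 1, 3 and 4 UMIs in all Aqp4 astrocytes together, against 182, 147 and 172 UMIs in the smaller Gfap-rich class. With DESeq2 the call of H2-Aa was lost, at a log2 fold change of -6.50 with a wide SE of 4.68. In the Gfap-rich class 27 and 23 barcodes held at least 5 UMIs of these 4 genes and with them 412 of the class's 488 and 280 of its 401 UMIs of these genes. They held 1 and 0 C1q UMIs, and only 74 and 82 of the 391 and 358 Gfap-rich barcodes had any UMI of the 4 genes. No Aqp4 astrocyte held 5, and the highest held 1 in replicate 1 and 3 in replicate 2. Cidea, a lipid droplet protein, had 2.01 and 2.89 CPM, against 37.4 and 34.7 CPM. The small heat shock gene Hspb8 and the collagen gene Col9a1 had log2 fold changes of -2.75 and -2.64, each with no overlap.

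Of the 34 genes of the FGF, Notch, BMP and gp130 list 2 were called lower, 0 higher and 32 were not called (list median -0.22), and the number called lower was between 0 and 3 over the alternatives. Smad6, an inhibitor of BMP signalling that BMP itself induces, had 3.52 and 5.55 CPM, against 11.8 and 17.4 CPM, and Smad9 had 3.27 and 4.1 CPM, against 9.26 and 9.47 CPM, log2 fold changes of -1.67 and -1.33. Bmpr1a (-0.59), Bmpr2 (-0.70), Smad7 (-0.90), Il6st (-0.83), Stat3 (-0.51) and Socs3 (-0.38), and the transcription factors Id3 (-0.54) and Id4 (-0.73), were lower by less than 2-fold, all with adjusted p under 0.05. With no fold limit 12 of 34 genes of the signalling list were lower and 2 higher, beside 424 lower and 253 higher of all genes. Of the reactive astrocyte list 2 of 15 were called lower, Emp1 (13.6 and 15.9 CPM, against 39.9 and 33.8 CPM) and Ggta1, and 0 higher. Hopx, a gene of radial glia and of some astrocytes, had 49.7 and 45.6 CPM, against 120 and 99.4 CPM (-1.20), and the matrix gene Tnc had 506 and 443 CPM, against 899 and 905 CPM, a difference under 2-fold.

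**Figure D4:**
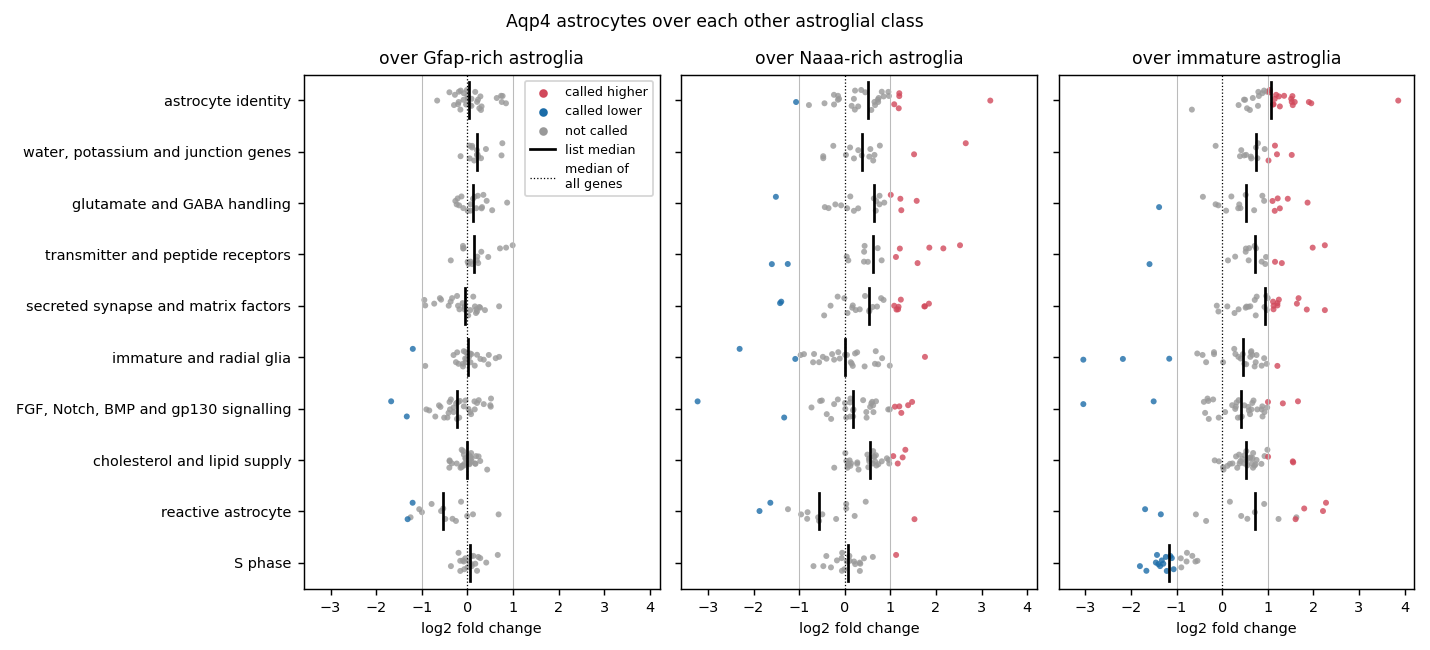
Log2 fold change of Aqp4 astrocytes over Gfap-rich, Naaa-rich and immature astroglia (3 panels, horizontal axes) for the genes of 10 lists (rows), drawn as in the plot of lists against all other barcodes. Against Gfap-rich astroglia the identity list has no coloured point, against Naaa-rich astroglia it has 5 red and 1 blue, and against immature astroglia it has 17 red and no blue point.

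Against Naaa-rich astroglia the Aqp4 astrocytes had more transcripts of some receptors, transporters and secreted proteins, and fewer of 3 ciliary genes, while genes of radial glia went both ways. Of 11650 genes 257 (2.21%) were called higher and 415 (3.56%) lower. Receptors had 6 of 16 called higher and 2 lower (list median 0.61, beside a median of 0.00 over all genes), and over the alternatives between 2 and 6 were called higher. Grm5 had 260 and 297 CPM, against 58.6 and 75 CPM, and Grm3 had 223 and 237 CPM, against 77.9 and 85.2 CPM. The values did not overlap, with log2 fold changes of 2.16 (SE 0.11, adjusted p = 6.01e-19) and 1.60. The GABA-B receptor gene Gabbr2 (1.85), Gabrg1 (1.12), Adora2b (1.21) and Adra1b, from 3 UMIs in the Naaa-rich class, were the others called higher, and the GABA-A receptor subunit Gabrb1 (-1.25) and Gria1 (-1.60) were called lower.

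Slc4a4 had 892 and 1050 CPM, against 334 and 391 CPM in Naaa-rich astroglia, Kcnj16 had 26.6 and 20.5 CPM, against 3.84 and 4.11 CPM, and Igfbp2 had 1266 and 1217 CPM, against 368 and 420 CPM. These 3 differed by 1.52, 2.65 and 1.76 with no overlap. Slc1a2 (0.29), Glul (0.20) and Mlc1 (0.12) differed less, and of 15 ion and junction genes 2 were called higher and 0 lower. The identity list had 5 of 30 called higher (Fgfr3, Bcan, Htra1, Tril and, from 1 UMI in the Naaa-rich class, Agt) and Clu, clusterin, lower, with 210 and 202 CPM against 486 and 442 CPM. Secreted genes had 8 of 26 called higher and 2 lower, among the lower ones Sparc, a matrix protein that opposes hevin, with 300 and 319 CPM against 805 and 941 CPM. Cholesterol and lipid genes had 4 of 33 called higher (Fdps, Cyp51, Dhcr7 and Scd1) and 0 lower, and with no fold limit 23 were higher and 0 lower, beside 1045 higher and 980 lower of all genes. Over the alternatives between 0 and 7 identity genes, 4 and 8 secreted genes and 1 and 7 lipid genes were called higher. Of 27 genes of radial glia and young astroglia 1 was called higher and 2 lower (list median 0.01), and with no fold limit 9 were higher and 10 lower.

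The genes with the highest fold changes over Naaa-rich astroglia were Kcnj16, Nkx2-2, Egr2, Chac2, Olfm2, Grm5, Nebl and Dock10, with log2 fold changes between 2.12 and 2.65. Olfm2 (chr9:20667690-20746349, minus strand), a secreted olfactomedin, had 65.1 and 59.6 CPM, against 13.5 and 14.4 CPM. Nkx2-2, a homeodomain factor of the oligodendrocyte lineage, had 20.1 and 20.5 CPM, against 1.92 and 5.13 CPM from 7 UMIs in all. Kcnj16, Egr2, Chac2 and Dock10 also rested on few UMIs in the Naaa-rich class, 8, 13, 11 and 11. The call of Chac2 was lost after thinning to 2000 UMIs, at a log2 fold change of 1.81. The lowest were Adamts18, Art3, Dct, Lhcgr, Dynlrb2, Rgs5, Jag1 and Shroom3, between -4.25 and -3.22. Jag1 had 5.53 and 2.65 CPM, against 36.5 and 46.2 CPM. The ciliary genes Dynlrb2, Rsph1 and Foxj1 were all 3 of the ependymal list that could be tested, and all were called lower. Over the alternatives between 0 and 4 genes of that list were called lower. The list sum in Naaa-rich astroglia differed between libraries (41.3 and 98.6 CPM). Hopx (49.7 and 45.6 CPM, against 276 and 230 CPM), Fezf2, Notch2 and Id4 were called lower as well. The Naaa-rich class rests on 269 barcodes with 1040424 and 973736 UMIs, the fewest of the classes compared.

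Against immature astroglia the Aqp4 astrocytes had more transcripts of most identity genes and fewer of Notch ligands and S phase genes. Of 11650 genes 379 (3.25%) were called higher and 245 (2.1%) lower. The identity list had 17 of 30 called higher and 0 lower (list median 1.08), with between 10 and 18 higher over the alternatives. Slc1a2 had 1132 and 1333 CPM, against 479 and 542 CPM, and Cst3, the secreted inhibitor cystatin C, had 9781 and 8543 CPM, against 3364 and 3014 CPM. Gja1 had 206 and 202 CPM, against 75 and 66.7 CPM. All were higher in both libraries with no overlap, by 1.26, 1.51 and 1.53. Slc7a10 (1.87), Sparcl1 (1.67), Apoe (1.55), Clu (1.90) and Grm3 (1.31) were called higher too. Of the ion and junction genes 4 of 15 were called higher, of glutamate handling 6 of 19 with Slc38a1 lower, and of secreted genes 10 of 26 with 0 lower. Of 35 astroglial transcription factors 0 were called by edgeR in either direction. With no fold limit 20 were higher and 2 lower, beside 1502 higher and 1420 lower of all genes.

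The Notch ligand Dll1 (chr17:15367354-15376872, minus strand) had 5.53 and 6.27 CPM in Aqp4 astrocytes and 48.0 and 49.7 CPM in immature astroglia, and Dll3 had 3.27 and 4.58 CPM, against 43.8 and 39.2 CPM. Neither gene overlapped between the classes, with log2 fold changes of -3.05 and -3.39. Mfng, which modifies Notch, had a log2 fold change of -3.06. The receptor Notch3 went the other way, with 62.8 and 66.3 CPM against 25.2 and 25.9 CPM (1.33). Jag1 was called lower (-1.50), and Hes5 was higher by 0.87, under the limit. Npy, Draxin and Ptgds were also among the lowest genes, between -3.25 and -2.15, and Npy had 10.6 and 13.5 CPM in Aqp4 astrocytes, against 54.0 and 175 CPM in the immature class, whose libraries differed widely.

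S phase genes had 13 of 20 called lower and 0 higher against immature astroglia (list median -1.18). Between 8 and 14 were called lower over the alternatives, and all 20 were lower with no fold limit, beside 1420 of 11650 genes. Mcm2 had 15.3 and 19.3 CPM, against 45.6 and 47.6 CPM. At least 3 S phase genes were detected in 5.81% and 7.40% of thinned Aqp4 astrocytes, against 20.5% and 23% of thinned immature astroglia. Both classes had been gated to 0 UMIs of Mki67 and Top2a, and of 11 mitosis genes tested only Birc5 was called lower.

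The genes with the highest fold changes over immature astroglia were C1qa, C1qb, C1qc, Tyrobp, Fcer1g, Gpc5, Abhd3 and Chst1. The first 5 are microglial and had between 1 and 6 UMIs each in the immature class. Leaving out barcodes with at least 10 C1q UMIs (3 and 2 Aqp4 astrocytes) left 1 of 12 microglial genes to test and 0 called, against 11 called before. Gpc5, a glypican, had 23.1 and 28.2 CPM, against 4.80 and 5.82 CPM, and Chst1, a sulfotransferase, had 39.4 and 47.5 CPM, against 8.40 and 12.2 CPM, both without overlap.

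Olig1 and Olig2, transcription factors of the oligodendrocyte lineage that some astrocytes also carry, were present in the Aqp4 astrocytes. Olig2 had 170 and 193 CPM, against 110 and 113 CPM in Gfap-rich, 92.3 and 128 CPM in Naaa-rich and 349 and 311 CPM in immature astroglia. The Aqp4 astrocytes lay above the Gfap-rich and Naaa-rich classes, whose values overlapped, and below the immature class in both libraries. The OPC gate stood at 672 and 667 CPM. Olig2 was detected in 26.8% and 27.6% of thinned Aqp4 astrocytes (55.3% and 61.3% without thinning), in 7.14% and 7.60% of the thinned neuron gate (15.3% and 17.5%) and in 69.9% and 70.9% of the thinned OPC gate (88.8% and 91.4%). Defining OPC genes were low in the same cells: Sox10 had 8.79 and 6.51 CPM, against 10.9 and 6.63 CPM in Gfap-rich astroglia, and Cspg4 had 13.8 and 9.41 CPM, against 7.67 and 10.4 CPM, while Pdgfra was 0 by the rule. Summed over the 12 OPC markers, which include Olig1 and Olig2, the level was 1114 and 1087 CPM in Aqp4 astrocytes. It was 790 and 794 CPM in Gfap-rich, 559 and 618 CPM in Naaa-rich and 2108 and 1863 CPM in immature astroglia. The OPC gate had 6859 and 6882 CPM.

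Variation among the Aqp4 astrocytes was read as variance over mean. At the same relative variation this measure rises with the level of a gene, so genes of high level lead it in part by construction. Variance over mean of thinned counts, which is near 1 for pure counting, had a median of 1.05 in both libraries over 3180 genes with a mean of at least 0.1 UMIs. The highest values were those of Malat1, a nuclear RNA, with 38.2 and 47.0, Apoe with 16.2 and 13.6, Cst3 with 11.8 and 12, Fabp7 with 10.1 and 8.44, Ptn with 7.93 and 8.20 and Ptprz1 with 7.12 and 6.87. Meg3, a noncoding RNA abundant in neurons, was found in only 7.47% and 8.30% of the barcodes and still had 9.34 and 5.28, and 3 mitochondrial genes (mt-Atp6, mt-Co1 and mt-Cytb) made up the rest of the first 10. As a description over the 482 and 446 thinned barcodes, which share library and depth, the Spearman correlation of Fabp7 with Dbi was 0.59 and 0.53. Aqp4 correlated with Apoe at 0.45 and 0.33 and with Sparcl1 at 0.39 and 0.32, and against Fabp7 it stood at -0.29 and -0.22. Aqp4 and Gja1, both sparse after thinning, correlated at 0.12 in both libraries.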

How the data were processed

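The 2 deposited matrices hold whole UMI counts of 32285 genes per barcode, which the authors made with Cell Ranger 6.0.2, per the file headers. Beside the genome build mm10, per the submitters' processing notes, Seurat 4.1.0 and R 4.1.0 were used for steps that the notes do not state, and no source used here names the annotation release. Barcodes were gated as the report states. The members and gene lists were chosen with earlier results of these data known. Gene coordinates come from a GENCODE annotation of mm10.

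UMIs were summed per library and class (Python 3.11.15, scipy 1.17.1) and compared with edgeR 4.0.16 in R 4.3.3: TMM scaling, filterByExpr, quasi-likelihood test, Benjamini-Hochberg adjustment over all genes tested, and the library as a block, since classes of 1 library share its cells' handling. The model against all other barcodes had 4 sums and 1 residual degree of freedom, the astroglial model 8 sums and 3. The fits were tested on simulated data. Doublets were scored per library with Scrublet in scanpy 1.11.5 at an expected rate of 10%, and marked barcodes were kept in the main comparisons. For shares of barcodes with a UMI each barcode was thinned to 2000 UMIs, and 48 and 37 shallower Aqp4 astrocytes were left out. The 3-count floor for classes without a UMI and all intervals cover counting error only.

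Genes were named by a fixed rule: called genes outside the gates, of the same direction in both libraries and with at least 20 CPM in the higher class, the 10 largest and 10 smallest fold changes against all other barcodes and the 8 and 8 of each astroglial comparison, with unnamed models and mitochondrial genes passed over, plus list members given with their list and the 10 genes of highest variance over mean. Alternatives were another scaling, DESeq2 1.42.0, no filter, no block, no fold limit, doublets left out, thinned counts, a depth window of 5000 to 15000 UMIs, at most 5% mitochondrial UMIs, other Aqp4 minimums, Aqp4 required in the comparison class, and each library alone. Some genes that the rule or the lists name are not reported here, although the counts include them.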

Additional observations from a re-analysis of the deposited data

How the results depend on the processing

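Directions and calls of the named genes against all other barcodes changed little, and the comparisons within astroglia depended more on the settings. Counts against all other barcodes, 1306 higher and 2268 lower, became 1088 and 1600 with DESeq2 and 1088 and 1628 after thinning. The identity list kept 25 genes higher in every alternative. Between 1 and 12 microglial genes, and between 3 and 11 endothelial, mural and fibroblast genes, were called lower. The alternatives gave 826 values of 66 named results. Of these, 721 kept their direction and their side of the limits, or moved by less than the spread between libraries. Of the rest, 30 lost the call, 11 changed sign and 64, all from 1 library alone, moved further. Values from 1 library are ratios of CPM without the scaling behind the main fold changes. Setting them against the main values therefore includes an offset in scale, and the 64 do not measure disagreement between libraries. The cause of a change was not tested unless the setting names it. Adjusted p with no fold limit, which tests the same genes against a looser rule, gave 4028 genes higher and 4519 lower against all other barcodes, 253 and 424 against Gfap-rich, 1045 and 980 against Naaa-rich and 1502 and 1420 against immature astroglia. DESeq2 gave 2 and 36 against Gfap-rich, 129 and 177 against Naaa-rich and 186 and 79 against immature astroglia. Thinned counts, with fewer UMIs, gave 10 and 62 against Gfap-rich, 175 lower against Naaa-rich and 201 and 91 against immature astroglia. At most 5% mitochondrial UMIs gave 42 higher against Gfap-rich astroglia, and leaving out barcodes with at least 10 C1q UMIs, chosen after seeing the data, gave 17. With Aqp4 required in the comparison class, 124 genes were higher and 222 lower against Naaa-rich astroglia.

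Without the replicate block 13 genes, in place of 27, were higher against Gfap-rich astroglia. The other counts stayed within 1.5 times, and S100a9 against all other barcodes and C1qa, C1qb, C1qc and Fcer1g against Gfap-rich astroglia lost their calls.

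The microglial genes changed sign most often. With doublet-marked barcodes left out, the log2 fold changes over Gfap-rich astroglia were -3.31 for C1qa, -2.65 for C1qb, -2.65 for C1qc and -3.15 for Fcer1g, and over immature astroglia -0.29 for C1qa and -0.47 for Fcer1g. Between 5000 and 15000 UMIs those over Gfap-rich astroglia were -0.08 for C1qa, -0.26 for C1qb, -0.86 for C1qc and -0.33 for Fcer1g, and after thinning Fcer1g stood at -0.034. The share of Aqp4 astrocytes was 6.48% with at least 1 Aqp4 UMI, 3.42% with at least 3, 4.27% with at most 5% mitochondrial UMIs, 4.81% without doublet-marked barcodes, 1.71% with no marker of either set, and 4.40% to 4.72% in each library alone. A single library leaves no residual degrees of freedom, so values without replicate 1 or without replicate 2 carry no test.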
